A study of Homo sapiens with 18 samples.

Results

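The map described here is that of MYC-bound sites in control MCF10A cells, built from the 3 peak lists of scramble-hairpin (shSCR) chromatin immunoprecipitations followed by sequencing (ChIP-seq). These are 3 of the 9 MYC libraries and of the 18 samples of the series, and every peak on chromosomes 1 to 22 was taken, 83139 of the 84759 peaks in the 3 lists. MCF10A is an immortalised breast epithelial line that does not form tumours on its own. All 3 cultures carried pBABE-hygro-MYC, which supplies ectopic MYC, pMN-IRES-GFP-PI3KH1047R, which supplies an activated PI3K, and pLKO-tetON-puro-shSCR, whose scramble hairpin was switched on with doxycycline at 2 µg/mL for 72 h. Chromatin from 10000000 cells per reaction was precipitated with the homemade MYC antibody N262. The map is therefore one of cells with added MYC, and the lists do not separate ectopic from endogenous protein. The series calls the 3 libraries biological replicates. They form 1 group, so nothing is tested between conditions here, and errors are standard deviations (SD) over the 3 libraries.

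MYC is a basic helix-loop-helix leucine zipper transcription factor that binds DNA as a dimer with MAX, with a preference for the E-box. Its targets include genes for ribosome assembly, nucleotide synthesis and cell growth, and at high levels it occupies most active promoters and many enhancers. A ChIP-seq peak marks a stretch where sequenced fragments pile up above the local background. The fold used below is the authors' value at the summit, the highest point of the peak: pileup plus 1 divided by background plus 1. The genes at the sites and the E-box content of their sequences were not analysed here.

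The 3 lists differed in length more than in the strength of their peaks. Replicate 1 held 29307 peaks, replicate 2 held 34051 and replicate 3 held 19781, a mean of 27713 ± 7267 (SD, n = 3). The peaks covered 8.87, 12.2 and 6.31 Mb, respectively. Median fold was 6.60, 6.67 and 6.95, so the shortest list had the highest median by a small margin. Median peak width was 241, 276 and 253 bp. The shortest peak in each list measured 144, 157 and 147 bp, and 2845, 3025 and 1916 peaks had exactly that width. Peaks of 1 kb or more were rare: 379, 985 and 297 in the same order. The depth recovered from the peak values was 8.40, 8.40 and 7.49 M fragments if the caller used its default human genome size. This may be the depth of the smaller of ChIP and input, so the depth of the MYC libraries themselves is not known.

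Merging peaks that overlapped by at least 1 bp gave 40903 sites. All 3 libraries called 14083 of them (34.4%, Wilson 95% interval 34.0 to 34.9%, counting error only), exactly 2 called 9419 (22.6 to 23.4%) and a single library called 17401 (42.5%). The sites called in all 3 made up 8.38 Mb, against 3.02 Mb for those called in 2 and 3.59 Mb for those called in 1. A minority of sites therefore held most of the covered length. Joining peaks of several lists widens a site, so part of this share is built in.

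The libraries shared sites unequally. Replicates 1 and 2 alone shared 6939 sites, replicates 2 and 3 alone 1803, and replicates 1 and 3 alone 677. Sites called only by replicate 2 numbered 10318, those only by replicate 1 numbered 5630, and those only by replicate 3 numbered 1453. Seen from each library, 51.5% of the sites of replicate 1, 42.5% of those of replicate 2 and 78.2% of those of replicate 3 were called in both others. With each list limited to its 19781 top peaks by q-value these shares came close together, at 59.1%, 57.1% and 61.3%, and single-library sites numbered 3772, 3754 and 3434. In that setting 11101 sites were called in all 3. The pairs kept their order at equal list length, with 2457 sites in replicates 1 and 2 alone, 2117 in replicates 2 and 3 alone and 1469 in replicates 1 and 3 alone. Without replicate 3, replicates 1 and 2 both called 21174 sites, 1.5 times the count for all 3 libraries.

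Sites found by more libraries were stronger and wider in each of them. In replicate 1 the median fold was 5.32 for sites of that library alone, 6.07 for those in 2 libraries and 8.55 for those in all 3. The same medians were 5.34, 6.15 and 9.94 in replicate 2, and 5.18, 5.68 and 7.81 in replicate 3. Over the 3 libraries, medians of 5.28 ± 0.0840 for single-library sites and 8.77 ± 1.08 for sites in all 3 (SD, n = 3) were further apart than their spread. Median peak width was 176 ± 17.4 bp and 348 ± 71.4 bp (SD, n = 3) in the same classes. Since a weak site passes the caller's limit less often, part of this order comes from how the classes are defined.

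**Figure D1:**
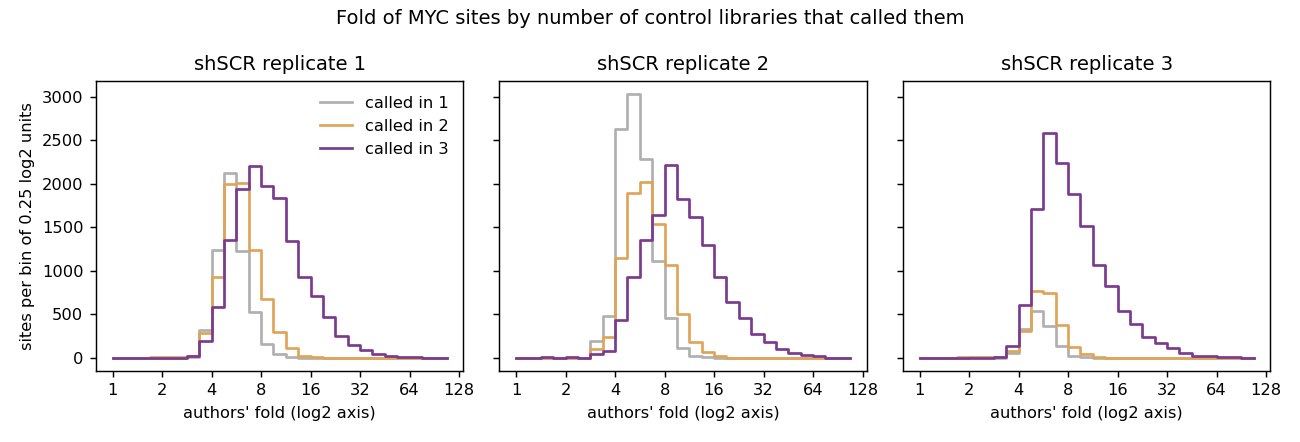
Number of sites (vertical axis, per bin of 0.25 log2 units) by the authors' fold (horizontal axis, log2) in each shSCR replicate, with sites called in 1, 2 or 3 libraries drawn as separate lines. Single-library sites centre near a fold of 5 in every replicate, while sites called in all 3 have medians of 8.55, 9.94 and 7.81 and reach far higher folds.

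Agreement between the libraries was read with strength taken from 1 list and calls from the 2 others. In the weakest decile of sites by fold, 22.1% (replicate 1), 11.3% (replicate 2) and 49.7% (replicate 3) were called in both other libraries. At the fifth decile the shares were 40.6%, 28.2% and 78.1%. At the ninth they were 89.1%, 87.8% and 99.2%, and in the strongest decile they were 99.1%, 98.9% and 100%. The mean over libraries was thus 27.7 ± 19.8% in the weakest decile and 99.3 ± 0.595% in the strongest (SD, n = 3): the shares differed widely at the weak end and hardly at the strong end. Replicate 3 was set against the 2 longer lists, and each of the others against its shorter one. The part of list length in this spread was not tested. The 2 weakest deciles were alike, with 21.2%, 10.3% and 53.3% in the second. No site of the strongest decile was missing from both other lists in any replicate.

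The share of sites that no other library called mirrored this. It was 42.8%, 58.2% and 24.5% in the weakest decile of replicates 1, 2 and 3, and 0.768%, 1.33% and 0.0555% in the ninth. The strongest site called by replicate 1 alone had a fold of 12.1, that of replicate 2 a fold of 13.6 and that of replicate 3 a fold of 12.2. No site above a fold of 13.6 was therefore private to a single library. Taking the strongest sites of a list downwards, 90% were called in both others down to a fold of 8.87 in replicate 1 (7296 sites), 9.69 in replicate 2 (8000 sites) and 6.17 in replicate 3 (11557 sites). For 99% the limits were 13.3 (2791 sites), 14.8 (3258 sites) and 9.62 (4880 sites). The lower limits of replicate 3 go with the longer lists it was compared with.

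**Figure D2:**
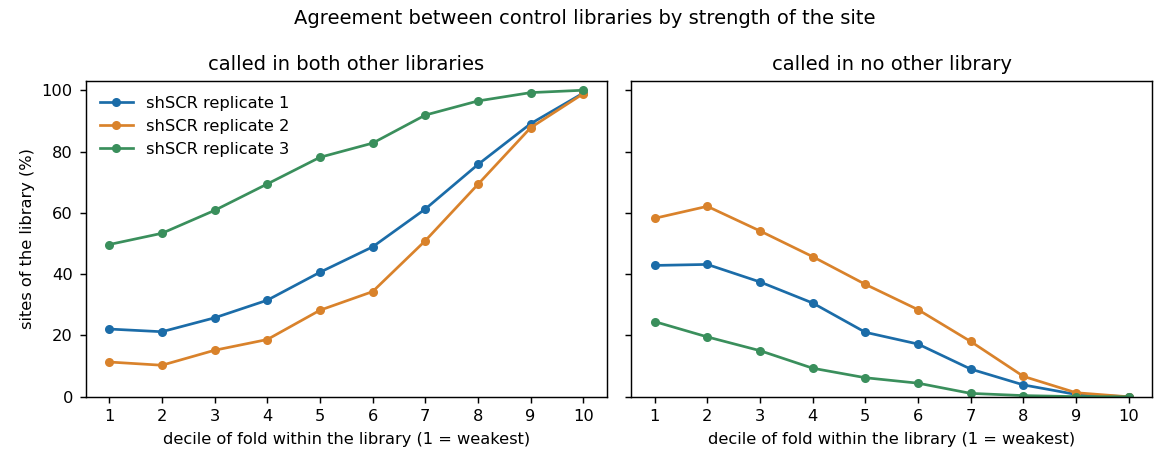
Share of the sites of each shSCR replicate (vertical axis, %) that were called in both other libraries (left) or in neither (right), by decile of fold within that library (horizontal axis, 1 is weakest). The 3 lines start between 11.3% and 49.7% on the left and meet at 98.9% to 100% in the strongest decile.

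Fold was not the measure that followed agreement most closely. A site called in all 3 libraries had the higher fold in 86.4 ± 2.35% of its pairings with a single-library site of the same list (SD, n = 3). For the pileup recovered from fold and p-value, the number of fragments stacked at the summit, this share was 90.8 ± 2.64%, for the −log10 q-value 88.3 ± 2.86% and for width 87.5 ± 2.98%. The order of pileup above q-value and of q-value above fold held in each of the 3 libraries. For the recovered background alone the share was 68.0 ± 0.902%. Width and pileup also went with agreement among sites of like fold. Agreement needs an overlap of at least 1 bp, which a wider peak meets more easily. The part of this rule in the width values was not tested. In the fifth fold decile, the wider-peaked sites of replicate 1 (median 295 bp) were called in both others in 57.3% of cases and the narrower ones (median 172 bp) in 23.9%. In replicate 2 these shares were 42.1% and 14.4%, and in replicate 3 they were 86.1% and 70.1%. The same split by pileup gave 54.7% against 26.5%, 43.7% against 12.8% and 85.9% against 70.3%.

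The height of binding was compared at the 14083 sites called in all 3 libraries. Across these sites the fold of replicates 1 and 2 had Spearman's rho of 0.65 and Pearson's r of 0.71 on the log2 scale. Values were 0.61 and 0.70 for replicates 1 and 3, and 0.65 and 0.72 for replicates 2 and 3. Pileups followed each other more closely, with rho of 0.79, 0.73 and 0.77 for the same pairs. These are descriptions across sites that share libraries, depth and the way background was estimated, and sites are not replicates. The highest fold at a site exceeded the lowest by a median factor of 1.56, by more than 2 at 17.7% of sites and by more than 3 at 1.35%. Replicate 2 gave the highest of the 3 values at 53.5% of sites, replicate 1 at 26.0% and replicate 3 at 20.5%.

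Summits were placed closely. The median distance between the summits of the strongest peaks was 37 bp for replicates 1 and 2 and 39 bp for either of the pairs with replicate 3. Between 79.2% and 81.2% of sites had summits within 100 bp in a given pair, and 1.38 to 1.65% had them more than 500 bp apart. The spread of all 3 summits had a median of 66 bp. It was 100 bp in the weakest decile of mean fold (median fold 5.47) and 35 bp in the strongest (median fold 22.5), although the strongest sites were the wider ones, with merged widths of 819 bp against 370 bp. The ratio of highest to lowest fold did not narrow in the same way: its median was 1.41 in the weakest decile, 1.65 in the eighth and 1.52 in the strongest. A weak site enters this class only if all 3 of its values pass the caller's limit, which narrows the ratio it can have.

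**Figure D3:**
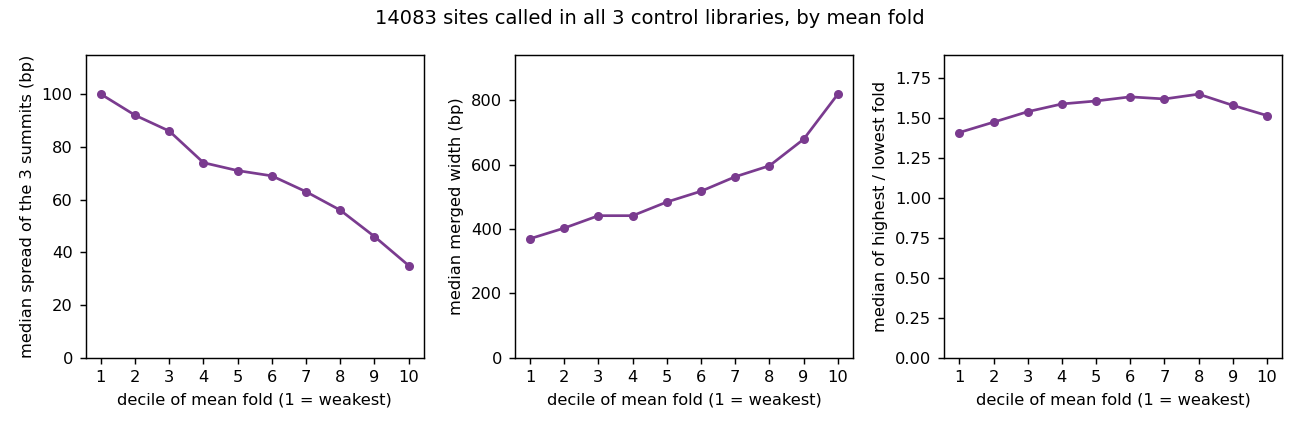
Median spread of the 3 summits (left, bp), median merged width (middle, bp) and median ratio of highest to lowest fold (right) for the 14083 sites called in all 3 shSCR libraries, by decile of mean fold (horizontal axis, 1 is weakest). Summits lie closer together and sites are wider at high fold, from 100 to 35 bp and from 370 to 819 bp, while the ratio stays between 1.41 and 1.65.

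Most of these sites were single peaks. In 11288 of them (80.2%) each library listed exactly 1 peak. The remaining sites were wider (median 919 bp against 444 bp), had a slightly higher median fold (9.71 against 8.55) and less closely placed summits (median spread 112 bp against 61 bp). Replicate 1 divided 1693 of the sites into 2 or more peaks, replicate 3 divided 1555 and replicate 2 divided 772. The list with the longest covered length thus split its sites least often.

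The strongest site of the map lay on the short arm of chromosome 7, at 4681258 to 4682105 (hg19, as are all positions). Its fold was 64.9, 118.5 and 121.1 in replicates 1, 2 and 3, a mean of 101.5 ± 31.7 (SD, n = 3), and the summits fell within 20 bp. The low fold of replicate 1 stood over a background of 1.91 fragments, against 1.02 and 0.519, while its pileup of 188 lay between the 238 and 183 of the others. The site on 17q at 42147795 to 42148704 came second, with folds of 79.8, 58.4 and 83.2 and summits within 10 bp. The site on 2p at 70312984 to 70315163 had folds of 46.7, 82.1 and 66.2 and was 2180 bp wide.

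On 5q the sites at 154134002 to 154135504 and at 170814338 to 170815998 had mean folds of 63.6 ± 8.52 and 61.5 ± 8.14 (SD, n = 3). A site on 16p at 21531387 to 21532266 had a mean of 62.9 ± 6.76, and one on 7p at 22893688 to 22894358 a mean of 61.2 ± 4.16 (SD, n = 3). The 2 sites on 22q, at 37957697 to 37958535 and at 21982887 to 21983973, had means of 60.6 ± 4.96 and 60.0 ± 6.68 (SD, n = 3) and each had another site called in all 3 libraries within 1 kb, at 0.946 and 0.689 kb. The last of the 10, on 13q at 91999563 to 92002058, had folds of 56.1, 60.6 and 58.2 and stood alone: the next site called in all 3 libraries was 1878 kb away. From the fourth site to the last, means of 58.3 to 63.6 differed by less than the spread of most of them, so their order is not resolved.

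The 3 widest sites were not among the 10 of highest mean fold. In each list fold and peak width went together, with Spearman's rho of 0.62, 0.67 and 0.65, respectively. A site on 10q at 74033253 to 74037251 measured 3999 bp and was made of 11 peaks, with folds of only 10.6, 14.2 and 9.37 and summits 1458 bp apart. The next, on 16p at 4321044 to 4324206, measured 3163 bp with folds of 34.6, 64.5 and 44.3, and its 3 summits fell within 18 bp. The third, on 6p at 32935947 to 32938911, measured 2965 bp with folds of 34.9, 31.4 and 23.8. This last site lies in the major histocompatibility complex, a long gene-dense stretch of 6p.

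The strongest sites missed by a library are given next. The top 3 called in 1 library only belonged to replicate 2: on 10q at 105726633 to 105727847 and on 2p at 25096559 to 25096852, each with a fold of 13.6 and a pileup of 22, and on 10p at 29698347 to 29698675, with a fold of 13.6 and a pileup of 20. The top 3 called in exactly 2 were missed by replicate 3. The site on 10p at 29935206 to 29935746 had folds of 9.91 and 18.4, that on 12p at 8111294 to 8111584 had 12.8 and 18.1, and that on 7p at 29971760 to 29972032 had 5.72 and 18.1, the higher value in replicate 2 each time.

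Among sites called in all 3 libraries with a mean fold of at least 10, the least even was on 1p at 59220969 to 59221511, with folds of 20.9, 16.02 and 3.77, a ratio of 5.53. There the replicate 3 background was 2.45 fragments against 0.963 and 0.997, and its pileup was 12 against 40 and 31. A second site on 1p, at 111746422 to 111746997, had folds of 3.78, 20.5 and 12.96 with a background of 1.91 fragments in replicate 1 and 0.705 and 0.543 in the others. The third, on 6q at 170535093 to 170535501, had folds of 10.4, 22.1 and 4.48 with backgrounds of 0.826, 0.493 and 1.90 fragments. In all of these the library with the lowest fold had both the highest background and the lowest pileup.

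MYC sites were clustered along the chromosomes. Between the mean summits of neighbouring sites called in all 3 libraries the median distance was 53.9 kb (34.7 kb without replicate 3) and the mean 187.5 kb, and 10.9% of the intervals were 2 kb or less, 21.6% were 10 kb or less and 3.85% were over 1 Mb. The distances had a pair of modes. The shorter was between 794 and 1000 bp, with 318 intervals, the longer between 63096 and 79433 bp, with 797, and the fewest intervals between them, 145, were from 3162 to 3981 bp. With sites of any library the modes were at 631 to 794 bp and 31623 to 39811 bp. Overlapping peaks were merged, so distances near the width of a peak are missing by construction, which bounds the shorter mode on its left.

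**Figure D4:**
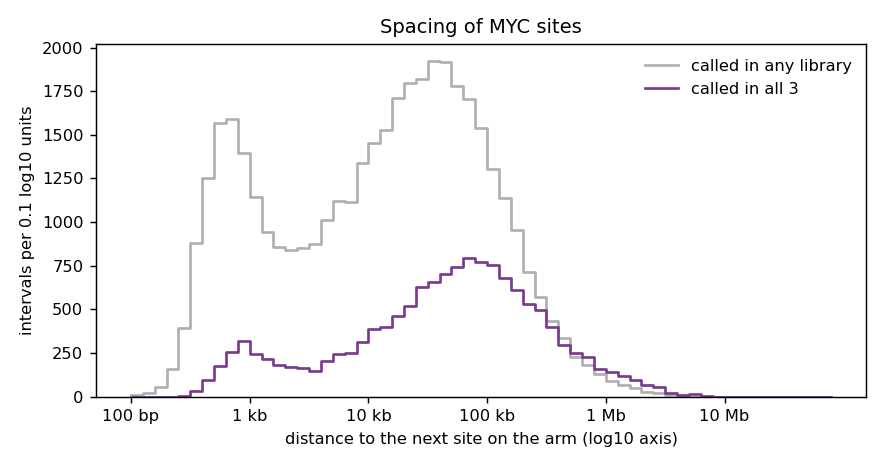
Number of intervals (vertical axis, per 0.1 log10 units) by distance from a site to the next on the same chromosome arm (horizontal axis, log10), for sites called in all 3 shSCR libraries and for sites called in any. Both lines have a short-distance mode just under 1 kb and a broad mode at 63096 to 79433 bp or, with any library, 31623 to 39811 bp, with a low between them.

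Sites called by fewer libraries sat almost as near the reproducible ones. The nearest other site called in all 3 libraries was within 2 kb for 19.2% of single-library sites, 19.6% of those in 2 libraries and 20.4% of those in 3, and the median distances were 26.1, 23.5 and 21.1 kb. By strength, the weakest decile of sites called in all 3 stood apart, with such a neighbour within 10 kb for 42.2%. In the other deciles this share was 34.0 to 38.8%, and it was 34.9% in the strongest. Joining sites called in all 3 libraries that lay within 10 kb of each other left 8868 of the 14083 alone (63.0%) and put 3334 in pairs. The longest chain, noticed only after its values were seen, held 15 sites over 23.3 kb on 8q, at 145007872 to 145031185. Others held 13 sites over 24.8 kb on 9q, at 137247413 to 137272244, and 12 sites over 38.8 kb on 19p, at 1237657 to 1276493. Mean folds in these chains were 10.4 to 11.1. Over all sites called in all 3 libraries the mean fold had a median of 8.77, which is a median and not a mean over sites.

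On the scale of megabases, 5 windows of 1 Mb stood at the top. Chromosome 19 from 1000001 to 2000000 held 50 sites called in all 3 libraries, from 80, 105 and 78 peaks in replicates 1, 2 and 3. Chromosome 8 from 145000001 to 146000000 held 48, chromosome 17 from 79000001 to 80000000 held 46, chromosome 19 from 2000001 to 3000000 held 46 and chromosome 17 from 7000001 to 8000000 held 45. Of 2897 windows, 768 held no such site, and the 98 windows with 20 or more held 18.8% of all of them. Sites were also dense near chromosome ends: the outer 5 Mb of the arms held 11.2 sites per Mb, the inner 5 Mb next to the centromere 3.62 and the rest 4.76, with unsequenced stretches outside the centromere gaps counted as length. Single-library sites showed the same order, with 10.6, 4.39 and 6.16 per Mb. Between neighbouring sites of any class on an arm, and leaving aside stretches at arm ends, the longest distances were on 7q from 66843530 to 72001156 (5.16 Mb), on 10q from 54624518 to 59463657 (4.84 Mb) and on 13q from 63087105 to 67352603 (4.27 Mb).

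Between chromosome arms the density of sites called in all 3 libraries differed by a factor of 6.51, around 5.14 sites per Mb over 39 arms. The densest arm was 19p at 3.27 times this level, followed by 19q at 2.22, 17q at 2.21, 17p at 2.11 and 22q at 1.93. The sparsest were 4q at 0.502, 9p at 0.506, 5p at 0.524, 13q at 0.553 and 6q at 0.584. As background, chromosomes 17, 19 and 22 are known to be rich in genes and chromosomes 4 and 13 to be poor in them. The arms differed far more than the libraries did. Relative peak density on 19p was 2.82, 2.86 and 3.23 in replicates 1, 2 and 3, and on 4q it was 0.537, 0.505 and 0.502. The SD over libraries had a median of 0.0289 over the arms, and 16 arms were above the level of the whole map in every library while 19 were below it in every library. With the arms ordered by mean peak density over the libraries, the lowest library of the denser arm exceeded the highest of the next in 10 of 38 neighbouring pairs, so most neighbours in that order were not resolved.

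Reproducible sites were spread less evenly over the arms than single-library ones. The highest arm density was 6.51 times the lowest for sites called in all 3. It was 6.66 times for those called in exactly 2 and 4.90 times for those called in 1. On 19p the relative density was 3.27, 2.62 and 2.56 in the same order. Correspondingly, the share of sites that all 3 libraries called was 39.9% on 19p (95% interval 37.0 to 42.9%) and 41.1% on 17p (37.1 to 45.1%), against 28.7% on 18q (25.3 to 32.4%) and 29.1% on 10p (25.5 to 32.9%). Across the 39 arms this share and the density had Spearman's rho of 0.69, a description of arms that share the same libraries. The count of sites called in all 3 enters both measures, so a positive rho is partly built in. The median fold of sites called in all 3 had a rho of 0.01 with density. Across arms, density and median fold therefore showed no common order.

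Background at the peaks set 3 arms apart in every library. Leaving out peaks at 10 times the median background or more, mean recovered background on 1q was 1.60, 1.61 and 1.65 times that of the whole list in replicates 1, 2 and 3. On 5q it was 1.23, 1.24 and 1.24, and on 8q it was 1.20, 1.21 and 1.23. On 1p it was 0.958, 0.956 and 0.937, and every arm other than 1q, 5q and 8q had a mean over libraries of at most 1.01. As background, MCF10A has been described as carrying gains on these arms. Copy number was not measured here, and its part in these values was not tested.

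**Figure D5:**
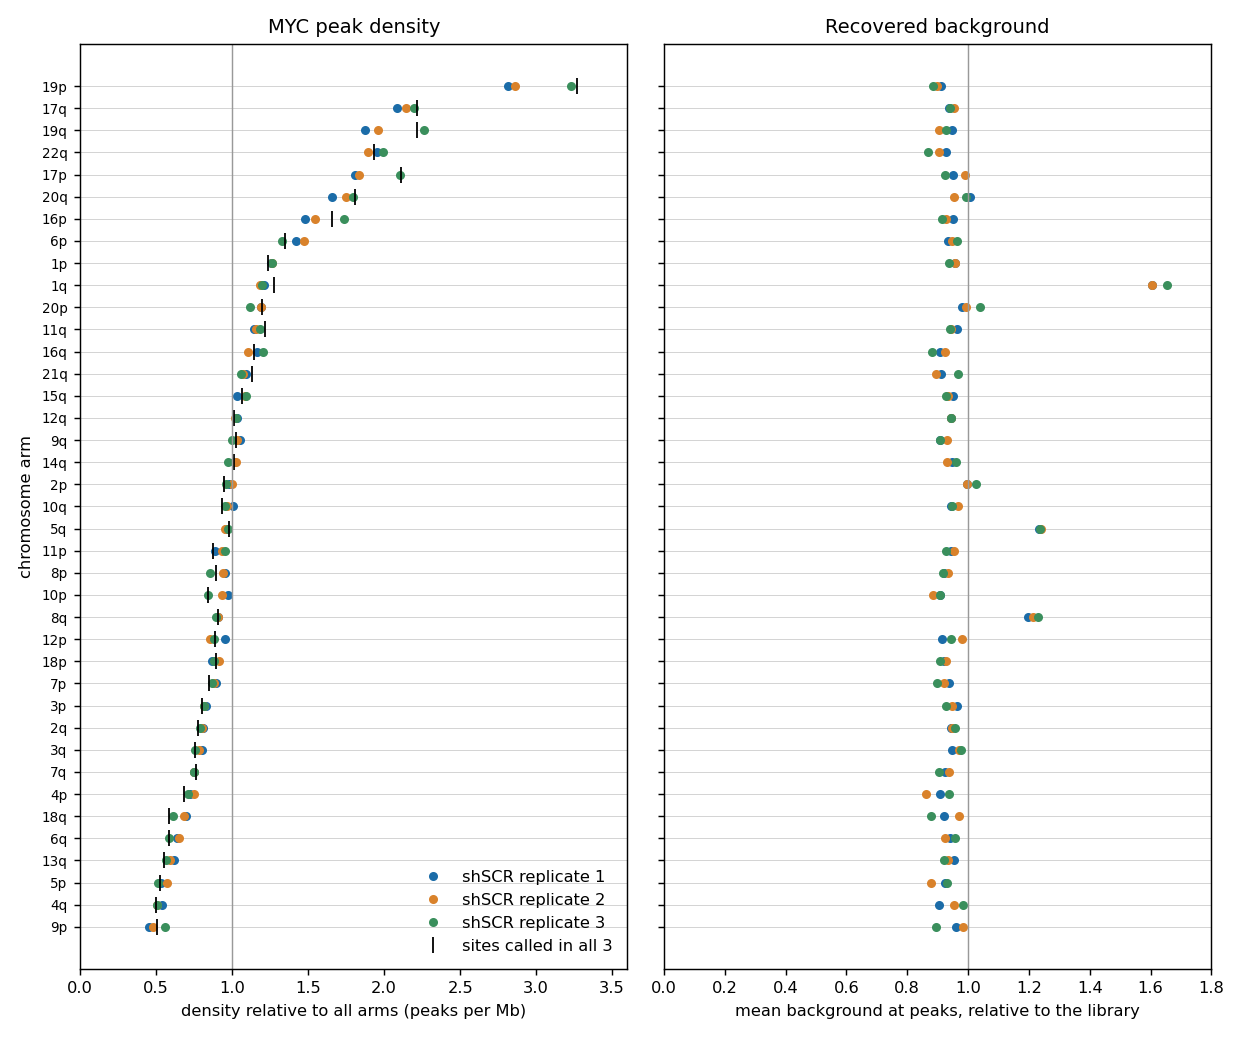
Peak density relative to all arms (left; points are the 3 shSCR replicates, bars the sites called in all 3) and mean recovered background at peaks relative to the whole list (right) for 39 chromosome arms, sorted by density. Densities run from about 0.5 on 9p and 4q to about 3 on 19p, with the replicates close together. Background stands apart on 1q, 5q and 8q, which are not the densest arms.

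The start of the raised background was located in windows of 5 Mb. Of the 481 windows with at least 10 peaks in each library, 30 were at 1.3 times the list's mean or more in all 3 libraries, and all 30 lay on 1q, 5q or 8q. A further 10 reached this level in some libraries only. The windows and the limit of 1.3 were chosen after the arm values were seen. On chromosome 1 the window from 115 to 120 Mb was at 0.951 ± 0.0411 and that from 145 to 150 Mb at 1.57 ± 0.0591 (SD, n = 3), with no window measured between them. A second step followed on the same arm, from 1.37 ± 0.0510 at 195 to 200 Mb to 1.82 ± 0.111 at 200 to 205 Mb (SD, n = 3). On chromosome 5 windows were at 0.908 ± 0.0217 from 110 to 115 Mb, 1.17 ± 0.137 from 115 to 120 Mb and 1.36 ± 0.0299 from 120 to 125 Mb (SD, n = 3). On chromosome 8 the step lay between 0.972 ± 0.0297 at 95 to 100 Mb and 1.37 ± 0.0871 at 100 to 105 Mb (SD, n = 3).

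In these 30 windows pileups were higher and folds were not. The windows were chosen by background, from the same peaks, so this is a description. Sites called in all 3 libraries had median pileups of 20, 25 and 16 fragments inside the windows and 15, 19 and 12 outside, in replicates 1, 2 and 3. Their median folds were 8.55, 9.65 and 7.67 inside and 8.55, 9.97 and 7.81 outside, equal in replicate 1 and slightly lower inside in replicates 2 and 3. A larger share of sites inside was called by all 3 libraries, 38.9% of 3172 (37.3 to 40.6%) against 34.1% of 37731 (33.6 to 34.5%). The windows needed at least 10 peaks in each library, while the sites outside include those of windows with fewer. The shares are therefore of unlike sets, and the part of this filter was not tested. Density of sites called in all 3 over the whole arms was 1.27 times the level of the map on 1q, 0.982 on 5q and 0.906 on 8q. With the span of its peaks as arm length, 1q stood at 1.47, 5q at 0.960 and 8q at 0.883. Density inside the windows alone was not computed.

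At the other end of the scale, 7 sites called in all 3 libraries had a background of at least 10 times the list's median in 2 or more of them, and all 7 lay within 5 Mb of a centromere gap. The widest, on 6p at 58776468 to 58779310, had folds of 2.28, 1.63 and 2.82 over backgrounds of 88.9, 104.2 and 78.5 fragments. One on 1p at 121484321 to 121485499 had folds of 3.11, 2.07 and 3.57. These sites, singled out after their values were seen, passed by significance with folds of 2.24 to 3.68 on average, against a median of 8.78 for the others. At that background replicate 1 had 37 sites, replicate 2 had 6 and replicate 3 had 42, of which 18.9%, 100% and 16.7% were called in all 3 libraries. Replicate 2 thus listed few such sites, all of them shared.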

How the data were processed

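The members and measures were chosen with earlier results of these data known. Tools listed in the submitters' processing notes are MACS2 (2.1.0), Picard (2.7.1), SAMtools (1.3) and STAR (2.5.2a), with hg19 and GRCh37 as builds. The sources used here do not say what each tool did or how it was set. Libraries were single 50 bp reads planned at 25 M per sample, per the labels' protocols. Each library has its own list in the deposited files, so replicates were not pooled. The deposited values are a fold (the ratio described with the results), a −log10 p-value, a −log10 q-value, and a whole-number score equal to the integer part of the −log10 q-value multiplied by 10. The highest q-value in any list was about 0.05.

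Peaks with 1 bp or more in common were joined into sites, and each site was credited to the libraries whose peaks it contains. The peak of highest fold stood for a library at a site. Pileup and background were recovered from fold and p for a Poisson caller, and 100% of peaks gave a whole-number pileup within 0.001 on the −log10 p scale. Depth is the lowest background shared by at least 1% of peaks, divided by the shortest width and scaled by the caller's default human genome size. Because the caller scales ChIP and input to each other, it may be the depth of the smaller of these. Merging and recovery were tested on simulated lists. Arms were divided at the hg19 centromere gaps, using chromosome lengths and gap positions of the public assembly that were entered by hand. No summit fell in a gap (0 peaks) or past a chromosome end, and unsequenced stretches outside the gaps count as length. The 5 short arms with under 10 sites were left out of densities (3 sites). Intervals on shares are Wilson 95% intervals for counting error.

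Named sites are the 10 of highest mean fold, the 3 widest, the 3 strongest called in exactly 1 and exactly 2 libraries, the 3 least even, the 5 densest windows, the 3 longest empty stretches and the 5 densest and sparsest arms. Results on promoters, E-boxes and gene lists had been planned and are not reported here, since the annotation used was of another build. The 6 knockdown lists were not used. Also tried were stricter limits on q-value or fold, other merging rules, equal peak numbers, other chromosomes and leaving out each library. Fold deciles split by pileup or width, the pairwise ranking of classes, chains of sites, arm end zones, distance modes, background windows and the limit of 10 times the median background were added after values were seen. Python 3.11.15, pandas 2.3.3 and SciPy 1.17.1 were used.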

Additional observations from a re-analysis of the deposited data

Results flagged for a closer look

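Signal also lay on sequences left out of the map. On chromosome X 211 sites were called in all 3 libraries, 24.9% of 848, with a median fold of 7.93, from 520, 687 and 337 peaks in replicates 1, 2 and 3. On unplaced contigs 10 sites were called in all 3, of 35. These sites are given because they lie outside the map, and they were not compared with a control.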

How the results depend on the processing

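Of the 5 densest and 5 sparsest arms, none had a relative density on the other side of 1 under any setting. Of their 120 recomputed values, 26 moved by at least the SD over libraries. At a fold of at least 10, 9p stood at 0.618 against 0.506 and 22q at 2.16 against 1.93. Without replicate 3, 19q stood at 1.95, 17q at 2.15, 17p at 1.88, 22q at 1.90 and 9p at 0.451. Order within the dense and within the sparse arms thus depended on the setting. Of the other arms, 12q was at 1.01 and at 0.991 with the span of its peaks as its length. A fold limit of at least 10 left 3091 sites called in all 3 libraries (33.1% of sites), with a median fold of 16.9, 98.6% agreement in the strongest decile, a median spacing of 290.6 kb and a median summit distance of 24.7 bp. This setting requires all 3 folds to pass the same limit, and not only a call in each list. A −log10 q of at least 5 gave 10219 sites called in all 3 libraries, a median fold of 10.2, a spacing of 75.8 kb and a summit distance of 34.3 bp. Merging within 100 bp gave a share of 35.7%. Requiring summits within 100 bp gave 11361 sites called in all 3 libraries, a share of 23.1%. It gave 90.1% agreement in the strongest decile, a spacing of 69.1 kb and a summit distance of 30.7 bp. Equal peak numbers gave a share of 39.5%, a median fold of 9.88, a spacing of 69.3 kb and a summit distance of 35.3 bp. With sites called in any library, 19p stood at 2.82 times the mean density and spacing was 15.9 kb, and with peaks of each library 19p stood at 2.97. Nearest summits lay 37 bp apart on average over pairs, against 38.3 bp. Leaving out 1 library at a time gave 15170 to 21174 sites called in both others, shares of 44.8 to 53.1%, median folds of 7.73 to 8.36, spacings of 34.7 to 47.5 kb, summit distances of 38 to 40 bp, densities on 19p of 3.02 to 3.23, and agreement of 99.4 to 99.9% in the strongest and 40.9 to 44.0% in the weakest decile. The lowest 19p density, the shortest spacing and the highest count came without replicate 3. The rise in shared sites is by construction, as fewer lists must call each. Peaks of very high background and the windows of raised background, both chosen after the data were seen, were also left out in turn. Sites called in all 3 libraries then numbered 14075 and 12848, with shares of 34.4% and 34.1%. In both of these settings the other recomputed values stayed within the spread over libraries or pairs of libraries. Arm densities were not recomputed without the windows. The cause of the other shifts was not tested. No paired analysis was possible because only 1 group is described. A site missing from a list fell short of the caller's threshold at that library's depth and enrichment, which does not show it unbound.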
